A study of Mus musculus with 8 samples.

Results

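Csf1r and C1qb, a pair of genes that macrophages express, were followed in 8 mammary tumours from mice given the kinase inhibitor SKI-606 or vehicle. Csf1r encodes the receptor for colony-stimulating factor 1, and C1qb encodes the B chain of complement C1q. Their probes were found through the zero-padded number in the probe identifier, which is the mouse Entrez Gene ID (12978 for Csf1r and 12260 for C1qb). Each gene had 1 probe, so they are 2 of the 7386 genes named on the array and 2 of its 24611 probes. Both were among the 12281 probes (4137 named genes) kept after a filter on detection. The pair was picked because, in an earlier look at these same arrays, they had the smallest p-values of a macrophage list when drug-treated and vehicle tumours were compared. Their differences between the groups are therefore a description here and carry no test.

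All 8 tumours, drug-treated and vehicle alike, came from female MMTV-PyVmT mice (FVB/N-Tg(MMTV-PyVT)634Mul/J). In this model the mouse mammary tumour virus promoter directs the polyoma virus middle T antigen to the mammary epithelium, and tumours form there. SKI-606, also called bosutinib, inhibits kinases of the Src and Abl families. It was given by gavage at 100 mg/kg in 0.5% methocellulose with 0.4% Tween 80 to the mice of 4 tumours, and 4 tumours came from vehicle-treated mice. The labels do not say what the vehicle held, and no label gives an age or a length of treatment. The question of the series, by its title, is whether the drug makes these tumours differentiate.

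RNA was hybridised to Illumina expression arrays, all on 1 chip, where the drug-treated tumours took the first 4 positions and the vehicle tumours the other 4. Chip position and treatment therefore cannot be told apart. Each array detected 11837 to 12578 probes, mean signals ran from 300.3 to 419.7, and SKI-606 replicate 1 and vehicle replicate 4 had the lowest mean signals (300.3 and 313.0). The 18S rRNA probe read 4136 to 10194 with SKI-606 and 8898 to 13712 with vehicle, and its part in the results below was not tested. For SKI-606 replicate 2 the source name speaks of cells from human islets, while its title, tissue and strain match the other arrays, so values without it are given below. The protocol speaks of RNA from each mouse, but no label ties an array to an animal. The p-values measure only the spread between these arrays, whose number limits the precision.

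Macrophages depend on CSF1, or the alternative ligand interleukin 34, acting through the receptor tyrosine kinase CSF1R for their survival and proliferation. In PyVmT tumours, macrophages recruited by CSF1 are known for their part in angiogenesis and invasion. C1q is the recognition subunit of the classical complement pathway, built from A, B and C chains. Its genes lie side by side in the mouse genome and are expressed mainly by macrophages in most tissues, while the Csf1r gene is a general marker of the mononuclear phagocyte lineage.

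In the RefSeq gene table (GRCm38.p6) C1qb, C1qc and C1qa were consecutive protein-coding genes, in that order, between Ephb2 and Epha8. C1qa and C1qb had a probe named here and C1qc had none. Because the C1q A and B chain genes varied together between tumours, as described below, the C1qb promoter from RefSeq is shown (GRCm38.p6, chr4:136886151-136886450, minus strand, 250 bases before to 50 after the gene start). Capitals mark the core of the binding motif of the myeloid factor PU.1 (GAGGAA) and a short motif of the Maf factors (TGCTGA), both searched on both strands (reverse complements TTCCTC and TCAGCA).
C1qb: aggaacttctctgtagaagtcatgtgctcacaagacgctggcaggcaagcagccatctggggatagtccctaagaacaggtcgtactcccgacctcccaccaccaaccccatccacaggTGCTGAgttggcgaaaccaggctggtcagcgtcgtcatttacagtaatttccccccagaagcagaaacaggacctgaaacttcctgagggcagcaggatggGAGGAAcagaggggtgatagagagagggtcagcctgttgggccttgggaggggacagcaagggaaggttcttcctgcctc

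Each motif occurred 1 time in this window, without overlap, the PU.1 core starting 30 bases and the Maf motif 131 bases before the gene start. Such short runs are common: 28.3% of 32851 promoter windows of the same length held the PU.1 core and 19.5% held the Maf motif, on either strand. A match is a run of letters and no evidence of binding in these tumours.

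Csf1r was slightly higher in the SKI-606 tumours than in the vehicle tumours, and C1qb slightly lower. The deposited signal of the Csf1r probe, before any correction, was 168.4, 312.8, 274.1 and 288.4 in SKI-606 replicates 1 to 4, and 216.2, 261.0, 268.4 and 162.7 in vehicle replicates 1 to 4. Both arrays of low mean signal gave the lowest Csf1r readings of their groups. The probe was detected on 8 of 8 arrays.

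After background correction and quantile normalization, which bring the arrays to a common scale, the log2 signal of Csf1r was 7.56, 8.01, 7.92 and 7.87 in SKI-606 replicates 1 to 4. In vehicle replicates 1 to 4 it was 7.37, 7.45, 7.74 and 7.39. SKI-606 replicates 2, 3 and 4 lay above every vehicle tumour, while SKI-606 replicate 1 lay below vehicle replicate 3, so the groups overlapped. The means were 7.84 ± 0.20 and 7.49 ± 0.17 (SD, n = 4 each). Their log2 difference was 0.35 ± 0.12 (SE), a 1.28-fold higher signal with a 95% interval of 1.04 to 1.56, given as a description. Neither this interval nor that of C1qb below takes account of how the pair was picked, by small p-values in this contrast.

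The C1qb probe, also detected on 8 of 8 arrays, had deposited signals of 528.2, 1046.1, 716.6 and 743.6 in SKI-606 replicates 1 to 4. The vehicle replicates 1 to 4 read 1064.0, 932.2, 986.9 and 855.9. On the normalized log2 scale, C1qb was 9.44, 9.92, 9.40 and 9.35 with SKI-606 against 9.92, 9.55, 9.77 and 9.95 with vehicle. SKI-606 replicates 1, 3 and 4 lay below all vehicle tumours, and SKI-606 replicate 2 lay among them, level with vehicle replicate 1.

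The C1qb group means were 9.53 ± 0.26 and 9.80 ± 0.18 (SD, n = 4 each), a log2 difference of -0.27 ± 0.15 (SE). This is a 1.20-fold lower signal with SKI-606, with a 95% interval from 0.947 to 1.53, again as a description. Without SKI-606 replicate 2, the array whose source name goes against its other labels, the C1qb difference was -0.40 and that of Csf1r 0.29. In bulk tumour RNA, fewer macrophages and less RNA per macrophage cannot be told apart.

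For 0 of the 2 genes were the groups free of overlap, whereas 11.2% of all 12281 tested probes had groups that did not overlap (3.76% higher and 7.42% lower with SKI-606). When arrays were instead scaled to the same median, the Csf1r difference shrank to 0.09 and that of C1qb grew to -0.52, with the median of all probes at -0.12. On that scale the C1qb groups no longer overlapped, and the Csf1r values ran from -0.35 to 0.47 with SKI-606 and from -0.28 to 0.30 with vehicle, relative to the vehicle mean. The sign of each gene's difference was the same under each of its 20 alternative settings. Those that changed only the probe filter or the probe choice could not move a gene with 1 probe.

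**Figure D1:**
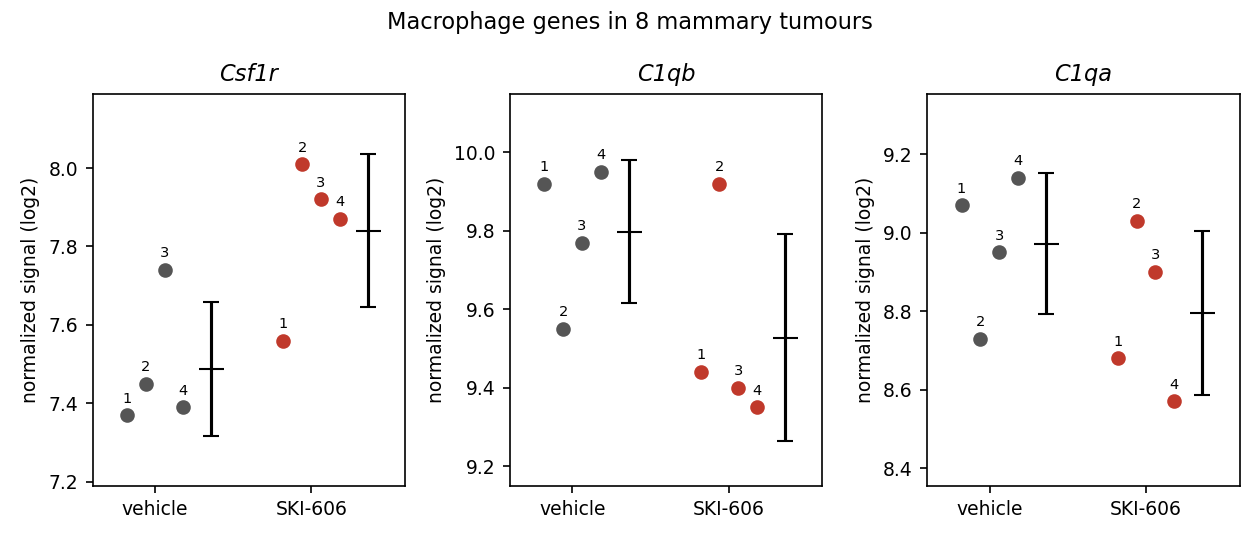
Normalized log2 signal of Csf1r, C1qb and the related C1q chain gene C1qa in each of 4 vehicle and 4 SKI-606 tumours. Points carry the replicate number, and bars show the mean ± SD of each group. Each panel spans the same range of 1 log2 unit, and in all 3 genes the groups overlap.

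C1qa, which encodes the A chain, was not a member and gave a second reading of the same complex. Its log2 signal was 8.68, 9.03, 8.90 and 8.57 in SKI-606 replicates 1 to 4 and 9.07, 8.73, 8.95 and 9.14 in vehicle replicates 1 to 4. The groups overlapped, with SKI-606 replicates 1 and 4 below all vehicle tumours and replicates 2 and 3 among them. The difference was -0.18 ± 0.13 (SE) and did not pass (limma adjusted p = 0.557). With arrays scaled to the same median it was -0.44, and the C1qa groups, like those of C1qb, no longer overlapped (-0.76 to -0.29 against -0.15 to 0.08, relative to the vehicle mean).

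The opposite signs of the pair meant that the difference between the genes shifted inside each tumour. With the vehicle mean set to 0, the log2 signal of C1qb minus that of Csf1r was -0.43, -0.40, -0.83 and -0.82 in SKI-606 replicates 1 to 4. It was 0.24, -0.21, -0.28 and 0.25 in vehicle replicates 1 to 4. All 4 SKI-606 tumours lay below all 4 vehicle tumours. The mean shift was -0.62 ± 0.24 (SD) against 0 ± 0.28, so that C1qb was 1.54-fold lower relative to Csf1r in the drug-treated group.

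This quantity cancels any factor shared by the whole array, so the settings that follow are not independent checks of it. It was -0.60 with arrays scaled to the same median, -0.59 with cyclic loess, -0.56 in the authors' deposited table on the log2 scale and -0.57 in the deposited signal with no processing, without overlap each time. This shift was not tested, because the pair was chosen from the same contrast. Of the other 12280 probes, 17.3% were lower relative to Csf1r without overlap, and 17.5% differed without overlap in either direction. Seen from C1qb, such a shift was less common. Relative to C1qb, 3.78% of the other probes were higher without overlap and 4.29% differed without overlap in either direction. C1qa minus Csf1r separated the groups too, at -0.53 ± 0.18 in SKI-606 tumours. It uses the same Csf1r values, so it is not an independent check.

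**Figure D2:**
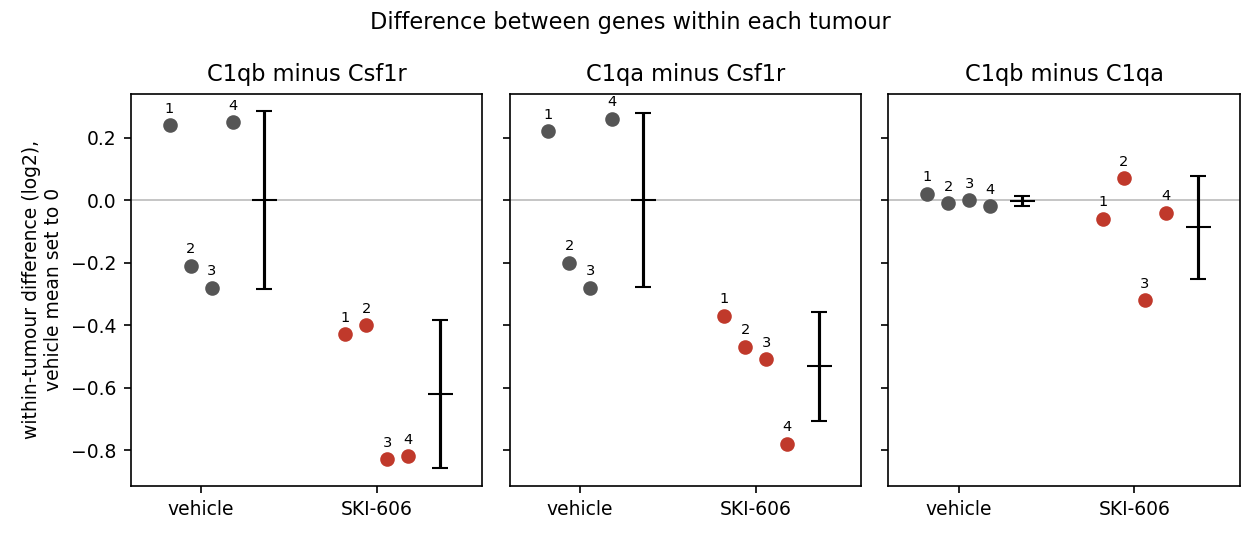
Log2 difference between genes within each tumour, with the vehicle mean set to 0, for C1qb minus Csf1r, C1qa minus Csf1r and C1qb minus C1qa. Points carry replicate numbers and bars show mean ± SD. Both C1q chains separate from Csf1r without overlap, in panels that share the same Csf1r values. The chains stay close to each other, with SKI-606 replicate 3 the lowest at -0.32.

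Both C1q chains tracked each other. C1qb minus C1qa was 0.02, -0.01, 0.00 and -0.02 in vehicle replicates 1 to 4, a spread of 0.02 (SD). In SKI-606 replicates 1 to 4 it was -0.06, 0.07, -0.32 and -0.04, a spread of 0.16, in which replicate 3 stood lowest.

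To compare genes without using the difference between groups, each tumour's deviation from its own group mean was taken. Across the 8 tumours these deviations gave r = 0.858 for C1qa with C1qb, which placed C1qa at rank 18 of 4064 named genes by likeness to C1qb. Without SKI-606 replicate 2, C1qa and C1qb gave r = 0.824 over 7 tumours. For Csf1r the relation was weaker. Its deviations gave r = 0.205 and rho = 0.071 with those of C1qb (exact permutation within groups, two-sided, p = 0.72 and p = 0.931, 1 relation tested, adjusted p = 0.72). Without SKI-606 replicate 1 and vehicle replicate 3, whose Csf1r deviations were the largest (-0.28 and 0.25), r was 0.43 and rho 0.371 (exact permutation p = 0.5 and p = 0.583, n = 6). Without SKI-606 replicate 2 and vehicle replicate 1, whose Csf1r levels lay farthest from the median of all 8 tumours, r was -0.179 and rho -0.371 (exact permutation p = 0.778 and p = 0.583, n = 6), and without SKI-606 replicate 2 alone r was -0.30. No relation between the pair was detected. Among 4064 genes, C1qb stood at rank 1581 by likeness to Csf1r and C1qa at rank 1471.

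**Figure D3:**
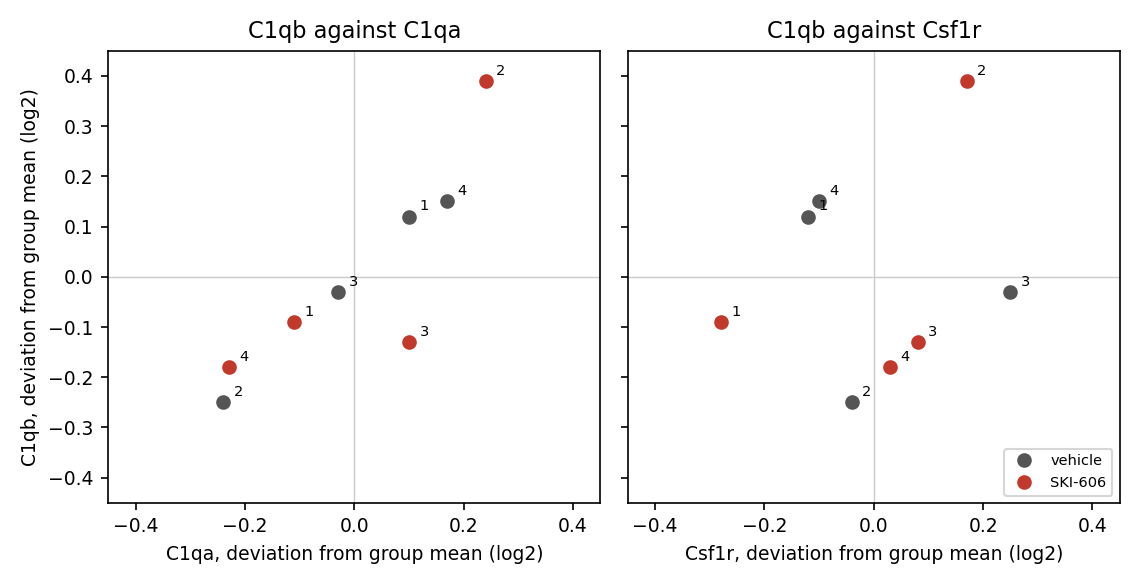
Deviation of C1qb from its group mean against that of C1qa (left) and Csf1r (right) in 8 tumours, on log2 scales, with vehicle in grey and SKI-606 in red and replicate numbers beside the points. C1qb and C1qa lie along a line (r = 0.858), and C1qb and Csf1r do not (r = 0.205).

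The genes most like Csf1r in these deviations were Itgb5, the integrin beta 5 chain (r = 0.929), Cep164, a centriole protein (0.920), and Pop4, a subunit of RNase P (0.896). The transcription cofactor gene Vgll4 (0.886) and the matrix metalloproteinase gene Mmp17 (0.881) followed. For C1qb they were Srebf2, the sterol-responsive transcription factor (0.947), Crip1 (0.941), and Pfdn2, a prefoldin subunit (0.937), then the helicase gene Dhx9 (0.920) and the endocytic receptor gene Lrp1 (0.907). These are the highest of 4064 values from 8 tumours of 1 chip, and none of the 10 is a member of the macrophage list, while Itgb5 is in the phagocytosis list.

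The remaining macrophage markers were mixed in sign. Of 48 listed genes, 18 had a probe named here and 14 were kept, Csf1r and C1qb among them. Of the other 12, 5 were higher and 7 lower with SKI-606, and 0 passed at a limma adjusted p under 0.05 (1 at an unadjusted p under 0.05), where 0.00814% of all probes were called. By unadjusted p, 6.04% of all probes were called higher and 10.3% lower, 16.3% in all. The median log2 difference of the 12 was -0.02, and -0.06 without SKI-606 replicate 2, beside -0.01 over all probes, of which 47.4% were higher.

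Of the 14 kept macrophage genes, 12 were detected on every array, among them the lysosomal glycoprotein gene Cd68, the lysozyme gene Lyz2 and the apolipoprotein gene Apoe. The filter already asked for detection on 4 of 8 arrays, so this count does not check the label. At a detection p under 0.01, 8397 of the 12281 kept probes were detected on all arrays. The probes of Itgam, Cybb, Msr1 and the general leukocyte gene Ptprc were not detected on any array. Adgre1 and Mrc1, which many studies use to define macrophages, had no probe named here. Without Csf1r and C1qb, the list mean per tumour relative to the vehicle mean was -0.27, 0.32, 0.10 and 0.10 in SKI-606 replicates 1 to 4. It was 0.02, 0.13, -0.02 and -0.12 in vehicle replicates 1 to 4. The SKI-606 tumours spanned a wider range than the vehicle tumours and lay on both sides of them. Replicate 1 was the lowest of all 8 and replicate 2 the highest.

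Among markers of phagocytic function, Lyz2 differed by -0.46 ± 0.26 (log2, SE; limma adjusted p = 0.452) and Lyz1, the related lysozyme gene, by -0.08 ± 0.13. Lyz2 was 10, 11.22, 10.10 and 10.20 in SKI-606 replicates 1 to 4 and between 10.73 and 11.02 in vehicle tumours. As with C1qb, SKI-606 replicates 1, 3 and 4 were below every vehicle tumour and replicate 2 was high. Lyz1 and Lyz2 are close paralogs, and cross-hybridisation between them was not tested. A further Lyz2 probe was not detected on any array. Cd68 differed by -0.03 ± 0.27 and Mertk, a receptor for apoptotic cells, by -0.04 ± 0.13.

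Clec7a, the beta-glucan receptor dectin-1, was the macrophage marker with the smallest p outside the pair, at 0.27 ± 0.10 (limma adjusted p = 0.268). Its values were 6.26, 6.68, 6.37 and 6.28 with SKI-606 and 6.13, 6.24, 6.10 and 6.05 with vehicle. The groups did not overlap, though the probe was dim and detected on 7 of 8 arrays only. Another Clec7a probe was not detected on any array. Slc11a1, a metal transporter of phagosomes, differed by 0.25 ± 0.18 at its brighter probe and by 0.00 ± 0.05 at its dimmer one.

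Gpnmb, a glycoprotein gene of macrophages and other cells, varied widely within both groups. It differed by 0.57 ± 0.67, with values from 7.84 to 10.23 across all tumours, and Spp1, which encodes osteopontin and is also made by epithelium, by 0.43 ± 0.30. Spp1 read 12.24 in vehicle replicate 4, against 13.43 to 13.81 elsewhere. Apoe differed by -0.10 ± 0.26. Of the leukocyte surface genes, Cd53 was at 0.00 ± 0.31 and Cd52 at 0.10 ± 0.10.

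**Figure D4:**
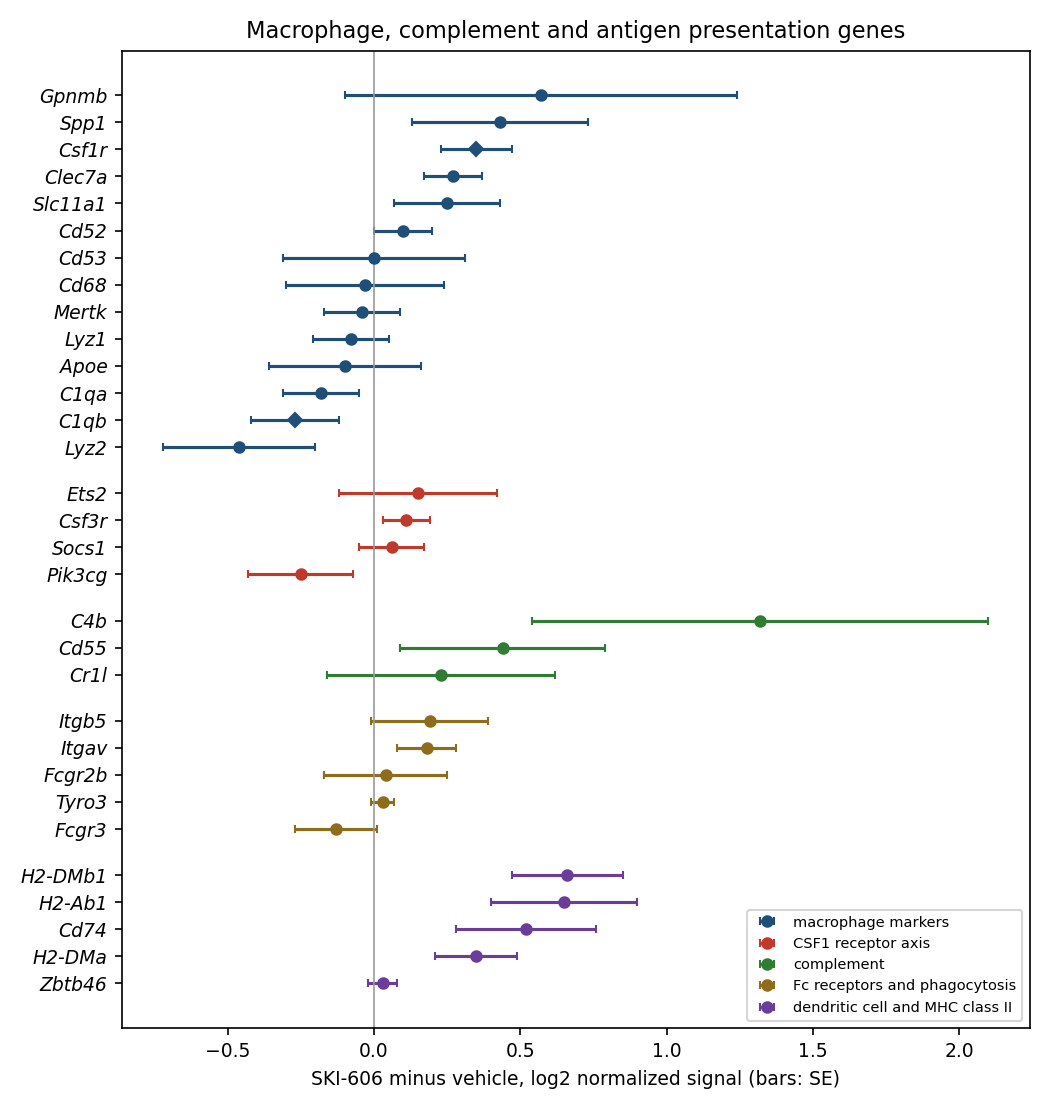
Log2 difference of SKI-606 minus vehicle for genes of 5 lists, with bars of ± SE. Diamonds mark Csf1r and C1qb, circles the other genes, and a gene of several lists is drawn 1 time. Differences of macrophage markers fall on both sides of 0, and those of all 5 genes of the dendritic cell and antigen presentation list lie above it.

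The list drawn around the CSF1 receptor, which also holds receptors for other colony-stimulating factors and general signalling genes, was thinly covered. None of its genes passed. Of 25 listed genes, 10 had a probe named here and 5 were kept. Beside Csf1r these were Csf3r, the receptor for granulocyte colony-stimulating factor, at 0.11 ± 0.08, and Pik3cg, the gamma catalytic subunit of PI3-kinase in leukocytes, at -0.25 ± 0.18. The signalling inhibitor gene Socs1 was at 0.06 ± 0.11 and the transcription factor gene Ets2 at 0.15 ± 0.27. The limma adjusted p-values of these 4 ran from 0.525 to 0.851, and their median difference was 0.09. With arrays scaled to the same median it was -0.05, with 1 higher and 3 lower. The ligand genes Csf1 and Il34 had no probe named here.

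Pik3cg read 7.53 in SKI-606 replicate 3 and 6.77 to 6.86 in the remaining drug-treated tumours, against 7.12 to 7.41 with vehicle. Thus 3 of 4 drug-treated tumours lay below every vehicle tumour. A further list held kinases of the Src, Tec and Abl families and some others, targets of the drug among them. Its probes of Src, Yes1, Abl1 and Abl2 were not detected on any array. Of that list of 18, the measured genes were the myeloid kinase gene Fgr, at 0.08 ± 0.09, and Csk, the kinase that restrains the Src family, at -0.01 ± 0.10.

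Complement genes other than the C1q chains had higher means with SKI-606 at their brightest probes, and none passed. With arrays scaled to the same median, this list had 2 genes higher and 2 lower, C1qa included. Of 40 listed genes 12 had a probe named here and 5 were kept, and of the 4 beside C1qb 3 were higher and 1 lower, with 0 past the threshold (0 at an unadjusted p under 0.05). Their median was 0.33 (0.57 without SKI-606 replicate 2, 0.11 without vehicle replicate 4), and it was 0.01 without SKI-606 replicate 1 and vehicle replicate 4, the arrays of lowest mean signal. C4b, a classical pathway component cleaved by the C1 complex, differed by 1.32 ± 0.78 (limma adjusted p = 0.47). Its values were 11.95, 8.56, 11.12 and 9.06 with SKI-606 and 8.18 to 9.70 with vehicle, so that SKI-606 replicates 1 and 3 alone stood above the vehicle range.

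The other C4b probes differed by 1.27 ± 0.80 and 0.52 ± 0.40, and cross-hybridisation with the near-identical gene C4a was not tested. The membrane regulators of complement Cd55 and Cr1l differed by 0.44 ± 0.35 and 0.23 ± 0.39, and the dimmer Cr1l probe by -0.10 ± 0.11. The C1r and C1s protease genes C1ra, C1s1 and C1s2, the partners of C1q in the C1 complex, were not measured, because their probes were detected on at most 1 array.

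Fc receptor and phagocytosis genes had 5 higher and 2 lower of 7 measured, with a median of 0.04 and 0 past the adjusted threshold (1 at an unadjusted p under 0.05). With arrays scaled to the same median, 3 were higher and 4 lower. Itgav, an integrin chain, differed by 0.18 ± 0.10 (limma adjusted p = 0.437). Fcgr3 and Fcgr2b, the Fc receptors for IgG that macrophages carry, differed by -0.13 ± 0.14 and 0.04 ± 0.21. After group means were removed, Fcgr3 correlated with C1qb at r = 0.85 and with Csf1r at 0.28. These were 0.44 and -0.67 without SKI-606 replicate 2.

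In these deviations, 12 of 12 macrophage markers correlated above 0 with Csf1r, with a median r of 0.38, against 51.2% of all probes and a median of 0.02. Without SKI-606 replicate 2 it was 11 of 12 and 0.21, with C1qa at -0.025. With C1qb, 8 of 12 were above 0, with a median of 0.19 against 0.00 over all probes. Without SKI-606 replicate 2 this was 4 of 12 and -0.36, against 0.14 over all probes, so the sign of the C1qb median rested on that array. The values share the same 8 tumours and arrays and are a description. Apoe gave the highest r with Csf1r among them (0.78), and C1qa the highest with C1qb (0.86).

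Among myeloid transcription factors, Nr1h3, the liver X receptor alpha of lipid-loaded macrophages, differed by 0.45 ± 0.13 (limma adjusted p = 0.185). Its values were 7.01, 6.95, 7.28 and 7.46 with SKI-606 and 6.61, 6.69, 6.67 and 6.94 with vehicle, without overlap. Cebpa differed by -0.09 ± 0.05 (0.443), and the 6 measured factors had 3 higher and 3 lower (2 and 4 with arrays scaled to the same median). The genes of PU.1 and Irf8 had no probe named here.

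Activation genes gave few readings. In the alternative activation list, Ctsb, a lysosomal protease of macrophages and other cells, differed by 0.32 ± 0.09 (limma adjusted p = 0.169) and Retnla, induced by interleukin 4, by -0.16 ± 0.47. In the inflammatory list, Tlr4, the receptor for lipopolysaccharide, differed by 0.55 ± 0.23 (0.3) and Cxcl9, an interferon-induced chemokine, by 0.35 ± 0.17 (0.383). Of the monocyte chemokine list, Ccl2 was at -0.01 ± 0.06 and Cx3cl1 at 0.00 ± 0.28.

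Markers of other cells of the tumour were higher with SKI-606 in several lists, although no gene passed. In the dendritic cell and antigen presentation, endothelial, fibroblast and adipocyte lists this held for every measured gene under each of 4 scalings. These were quantile with and without background correction, same median, and cyclic loess. The same was true of the neutrophil (3 genes), mast cell (2), T and NK cell (2) and inflammatory macrophage activation (3 genes, median 0.35) lists. In these lists the list means of the groups overlapped. They were -0.22 to 1.25 with SKI-606 against -0.38 to 0.94 with vehicle (neutrophil) and 0 to 0.72 against -0.08 to 0.11 (mast cell). They were -0.07 to 0.33 against -0.03 to 0.02 (T and NK cell) and 0.03 to 0.52 against -0.07 to 0.06 (inflammatory). S100a9 and Cd3e were detected on 5 of 8 arrays and Ido1, of the inflammatory list, on 4. The 4 scalings use the same 8 arrays and are not independent checks. The antigen presentation genes of dendritic cells, macrophages and B cells had 5 of 5 higher with a median of 0.52. H2-DMb1, the peptide exchange chain, was at 0.66 ± 0.19 (limma adjusted p = 0.18) and the class II chain gene H2-Ab1 at 0.65 ± 0.25 (0.264), with its dimmer probe at 0.15 ± 0.34. With arrays scaled to the same median the list median was 0.30. The list mean ran from 0.16 to 0.61 with SKI-606 and from -0.23 to 0.40 with vehicle, an overlap at vehicle replicate 4. After group means were removed, the median r of these genes with Csf1r was 0.18.

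Endothelial markers had 6 of 6 higher (list means 0.34 to 0.83 against -0.19 to 0.20), with Robo4 at 0.71 ± 0.14 and Mmrn2 at 0.60 ± 0.14. Fibroblast markers had 7 of 7 higher (0.52 to 0.86 against -0.55 to 0.29), with Col6a1 at 0.44 ± 0.10 and Col6a3 at 0.58 ± 0.14. The adipocyte list rested on Lpl and Pnpla2, which differed by 1.74 ± 0.72 and 0.55 ± 0.27, with list means of 0.18 to 2.17 against -0.46 to 0.49. The probe of Fabp4, the remaining adipocyte gene with a probe named here, was not detected on any array, and neither was a further Lpl probe. SKI-606 replicate 1, the highest in adipocyte genes at 2.17, was the lowest SKI-606 tumour in Csf1r and in the macrophage list. In deviations from group means, the median r with Csf1r was -0.59 for the endothelial markers (0 of 6 above 0), 0.28 for the fibroblast markers (5 of 7) and -0.42 for the adipocyte genes (0 of 2). These medians were -0.75, 0.38 and -0.13 without SKI-606 replicate 2. The part of these cells in the Csf1r and C1qb values was not tested.

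S100a9, a neutrophil gene, read 10.25 in SKI-606 replicate 2 and 9.74 in vehicle replicate 2, against 5.98 to 6.82 elsewhere. The neutrophil granule genes Elane and Mpo were not detected on any array, and the lactoferrin gene Ltf, also a product of mammary epithelium, differed by 0.38 ± 0.14 (limma adjusted p = 0.26). SKI-606 replicate 2 was thus the highest SKI-606 tumour in C1qb, C1qa, Lyz2, Csf1r and S100a9. Vehicle replicate 2, by contrast, had the lowest C1qb and C1qa of its group. The part of neutrophils was not tested.

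Lymphoid and mast cell genes had few measured members. Cd3e of T cells was at 0.18 ± 0.11 and Il7r at 0.23 ± 0.15, Igkc of B and plasma cells at 1.47 ± 0.69 (limma adjusted p = 0.35) and Sdc1, which epithelium also makes, at -0.17 ± 0.55. The mast cell protease genes Cma1 and Mcpt4 were at 0.26 ± 0.15 and 0.22 ± 0.17. Of 7 mammary epithelial markers 5 were higher (4 with arrays scaled to the same median), with the casein gene Csn2 at 2.62 ± 0.69 and Esr1, the oestrogen receptor, at 0.31 ± 0.12.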

How the data were processed

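RNA from 8 tumours was measured on Illumina arrays, and 8 ng of RNA per mouse went into cDNA synthesis, per the labels' protocols. The deposited signal table holds, per the file headers, an average intensity and a detection p-value per probe and array. Its values showed no background subtraction or normalization between arrays. The authors also deposited a second table, of processed intensity, linear and with equal quantiles in all columns, used here as an alternative. Software versions upstream are not stated in the labels.

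The neqc function of limma 3.58.1, run in R 4.3.3 with an offset of 16, corrected the background from detection p-values, quantile-normalized the arrays and took log2. After 4 bacterial control probes were removed, a probe was kept if 4 or more of the 8 arrays had detection p-values below 0.05. The model in lmFit and eBayes held treatment only, and Benjamini-Hochberg adjustment ran over all 12281 probes. A gene with several kept probes is given by its brightest. Differences are SKI-606 minus vehicle.

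Names came from matching zero-padded numbers in probe identifiers to RefSeq gene IDs: 93.3% of 9490 matched, against 48.7% after adding 1 and 10.3% of unpadded numbers. Of the kept probes 4638 were named, covering 4137 genes, and 7643 were not. The vehicle title without a number was called replicate 3 as a name only. Vehicle replicates 1 and 3, the closest arrays (r = 0.992 across probes, where probes are not independent of each other), were counted as separate samples, since 48 probes differed by more than 2-fold.

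The members, gene lists and tests were chosen with earlier results of these data known. The text names Csf1r, C1qb and every measured gene of the macrophage, CSF1 receptor and complement lists. From each other list, where no gene passed, it names the 2 genes of smallest p (4 passing genes would have been the maximum), with further genes given for context, such as Fcgr3, Fcgr2b and S100a9, picked after their values were seen. It also names the 5 genes closest to each member by correlation of deviations. Predicted genes were not named, and a gene that this rule names is not reported here.

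Tested on 10 simulations of 12281 probes, 200 of them shifted by 0.5, 1, 2 or 3 on the log2 scale, limma made 10.1 false calls per simulation. It called 36.8% of the probes shifted by 0.5 and 70.0% of those shifted by 1. The simulated noise was normal and independent between probes, so these rates need not hold for the tumours. The Benjamini-Hochberg cut-off also loosens as more probes pass. With 200 shifted probes it was looser than in the tumours, where 1 probe passed. The rates are therefore not the power of the comparison made here. Alternatives covered background correction, normalization, offset, probe filter, variance model, array weights, probe choice, replicate number as a block, and arrays left out. Figures were drawn with matplotlib 3.10.9.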

Additional observations from a re-analysis of the deposited data

Results flagged for a closer look

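In 42 groups of 4 values (21 genes in each treatment group), 4 had a tumour set apart from the other 3, where chance alone flags about 1 group in 20. C1qb read 9.92 in SKI-606 replicate 2 against 9.35 to 9.44 in the remaining drug-treated tumours. Lyz2 read 11.22 in the same tumour against 10 to 10.2. Spp1 was 12.24 in vehicle replicate 4 against 13.48 to 13.59 in the other vehicle tumours. Pik3cg was 7.53 in SKI-606 replicate 3 against 6.77 to 6.86.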

How the results depend on the processing

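Across 20 alternative settings each, the Csf1r difference ran from 0.09 to 0.44 and the C1qb difference from -0.52 to -0.19, each with its sign kept. The settings of probe filter and probe choice left both unchanged by design. The values 0.09 for Csf1r and -0.52 for C1qb came from scaling arrays to the same median, and all other values moved by less than 1 SD of the replicates. With 1 array left out in turn, Csf1r ran from 0.29 to 0.44 and C1qb from -0.40 (without SKI-606 replicate 2) to -0.21. Without both arrays of low mean signal, an alternative chosen after seeing the data, they were 0.41 and -0.19.

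No macrophage marker passed in any of 21 settings. The macrophage median ran from -0.19 (same median) to 0.12 and changed sign with the setting, and the complement median from 0.01 to 0.57. The correlation of Csf1r and C1qb deviations was -0.30 without SKI-606 replicate 2 (exact permutation p = 0.604) and 0.46 with median scaling (p = 0.372). It ran from -0.30 to 0.32 with 1 array left out (exact permutation p from 0.535 to 0.785), and was 0.43 without the 2 tumours of largest Csf1r deviation, also chosen after seeing the data. Over all probes, 1 passed in the main setting. The count was 0 with median scaling, an offset of 50, probes detected at 0.01 on all arrays, an intensity trend with robust prior, or without both arrays of low signal. It was 185 with array weights, and between 0 and 13 with 1 array left out (13 without SKI-606 replicate 2, 7 without SKI-606 replicate 1). With the replicate number as a block, over the 6 tumours whose titles hold the numbers 1, 2 and 4, it was 0, and also 0 in the same tumours without the block. The Csf1r and C1qb differences were 0.41 and -0.23 with and without the block, which a balanced block cannot change. Same-numbered tumours deviated together for the number 2 (r = 0.63) but not for 1 (0.00) or 4 (-0.02), so the numbers were not taken as pairs.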
